A study of Arabidopsis thaliana with 8 samples.

Results

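The clade A protein phosphatases 2C (PP2C) of Arabidopsis thaliana are 9 enzymes, and their transcripts were followed in whole seedlings given abscisic acid (ABA) or either of 2 of its breakdown products. The 9 genes were taken by locus from the known membership of the clade, not from their values: ABI1, ABI2, HAB1, HAB2, AHG1, PP2CA, HAI1, HAI2 and HAI3, out of 32678 gene loci in the deposited tables. The seedlings were wild type of the Columbia accession, 10 days old, raised on MS medium under continuous light. They received 50 μM dihydrophaseic acid (DPA), 50 μM phaseic acid (PA) or 50 μM ABA for 3 h, or a mock treatment, with 2 biological replicates per group and 8 libraries in all. The library protocol selected polyadenylated RNA. No mutant or transgene was used in any group.

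In the core ABA pathway, clade A PP2C dephosphorylate and thereby silence SnRK2 kinases, and ABA-bound receptors of the PYR1 and PYL family block the phosphatases. The kinases then act on ion channels and on bZIP transcription factors that bind the ABA-responsive element (ABRE), a promoter motif built on the letters ACGTG. Transcripts of the phosphatases themselves are known to accumulate after ABA, a negative feedback on the pathway. ABA is oxidized to PA, and PA is reduced to DPA.

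Between 11468318 and 15934091 reads per library fell in genes, and of every 1000000 of them the clade took 171 and 182 with DPA, 369 and 364 with PA, 1635 and 1494 with ABA, and 197 and 221 in mock. The deposited tables hold 1 normalized mean per group, from which the reads of both libraries were recovered. A group's 2 libraries are therefore known only by their size factor (the scale factor for depth), and values of a group are given for its library of higher size factor first. Because whole seedlings were used, a change in transcript per cell and a change in the share of cells that express a gene cannot be told apart. The shoot marker RBCS1A had 122580 to 157290 normalized counts over the 8 libraries. Of 3 root markers, PYK10 had 20875 to 39355, RHD2 had 50.1 to 227 and NRT2.1 had only 1.22 to 29.96. The seed storage gene CRA1 was not near 0, with 623 to 2647 normalized counts. The guard cell markers MYB60 and KAT1 had deposited log2 fold changes of -1.05 and -0.61 with ABA against mock. Both were called lower in the authors' deposited table, as was the root marker PYK10 (-0.45, adjusted p = 0.00153). There FAMA, the other guard cell marker, was not called (-0.33, adjusted p = 0.205). The root markers RHD2 (1.16, adjusted p = 0.0774) and NRT2.1 (-2.87, adjusted p = 0.572) were not called either. The part of the markers in the results was not tested.

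All 9 phosphatase genes were higher with ABA than in mock, and 7 of the 9 were higher with PA (Benjamini-Hochberg adjusted p under 0.05 in the authors' deposited table of DESeq results). None passed with DPA. Over all genes tested, 10.3% were called higher with ABA, 1.18% were called higher with PA and 0.0125% were called in either direction with DPA. The members' median log2 fold change in the authors' deposited tables was -0.21 with DPA, 0.96 with PA and 3.35 with ABA, beside medians of 0.0024 with DPA, -0.0087 with PA and -0.011 with ABA over all genes. The 3 comparisons share the same mock libraries. Of the 9 members, 9 had a mean of at least 10 normalized counts over the 8 libraries, and AHG1 passed only through its ABA libraries.

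**Figure D1:**
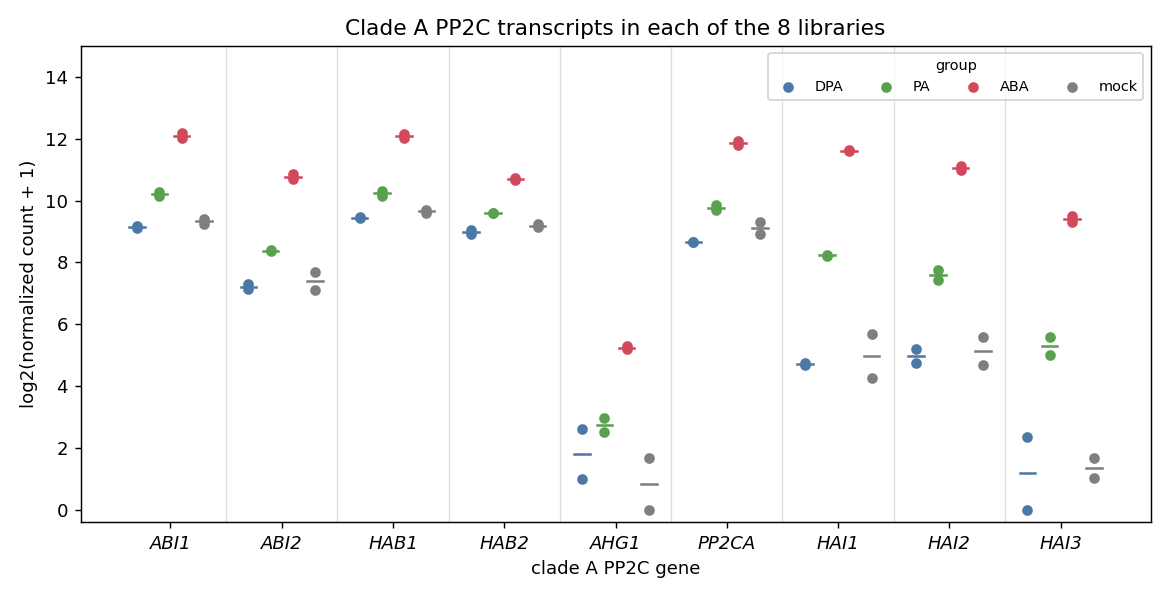
Level of each clade A PP2C gene in the 8 libraries, as log2(normalized count + 1). Each point is 1 library, the short line is the mean of the 2 log2 values, and groups run DPA, PA, ABA and mock within each gene. For every gene both ABA points lie above all other points, and both PA points lie above both mock points.

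The HAI genes (highly ABA-induced PP2C genes) gave the largest fold changes of the clade with ABA and stood low in mock. HAI1 (AT5G59220, chromosome 5, 23894404 to 23896939, minus strand, TAIR10.1), known from senescing leaves as a phosphatase that restrains stomatal closure, had 25.0 and 25.8 normalized counts with DPA, 295 and 303 with PA, 3178 and 3085 with ABA, and 18.4 and 50.2 in mock. The DPA values lay inside the range of the mock values, while both PA and both ABA values lay above it. In the authors' deposited table its log2 fold change was 3.12 with PA (adjusted p = 6.67e-28) and 6.51 with ABA (adjusted p = 2.46e-232).

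HAI2 (AT1G07430, chromosome 1, 2280746 to 2282828, minus strand), a close relative that binds SnRK2 kinases, had 26.0 and 36.1 normalized counts with DPA, 172 and 215 with PA, 2202 and 2039 with ABA, and 24.5 and 46.9 in mock. Again the groups did not overlap except for DPA, which fell inside the mock range. The authors' deposited tables gave log2 fold changes of 2.44 with PA (adjusted p = 2.59e-10) and 5.89 with ABA (adjusted p = 1.67e-183).

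HAI3 (AT2G29380, chromosome 2, 12608675 to 12610350, plus strand) was read at most 4 times in any DPA or mock library. Its reads were 0 and 4 with DPA, 36 and 40 with PA, 720 and 585 with ABA, and 1 and 2 in mock, which are 0 and 4.13, 30.8 and 46.8, 626 and 717, and 1.02 and 2.18 normalized counts. DPA spanned the mock values, PA lay above them, and ABA lay far above PA. With 76 reads against 3, the ratio of PA to mock was 23.7 (95% exact counting interval 7.82 to 118), which covers counting error only. The authors' deposited table called it higher with PA (adjusted p = 8.77e-06) and with ABA (log2 fold change 8.71, adjusted p = 8.84e-109).

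The ABI and HAB genes were well expressed in mock and had smaller fold changes. ABI1 (AT4G26080, chromosome 4, 13219915 to 13222376, minus strand), the phosphatase whose dominant mutation makes plants insensitive to ABA, had 550.3 and 574 normalized counts with DPA, 1236 and 1141 with PA, 4619.7 and 4138 with ABA, and 609.9 and 678 in mock. Every DPA value lay below every mock value, and every PA value above. In the authors' deposited tables the log2 fold change was 0.88 with PA (adjusted p = 4.46e-07) and 2.77 with ABA (adjusted p = 2.71e-72).

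ABI2 (AT5G57050, chromosome 5, 23087122 to 23089631, plus strand), its closest relative, is known for the same kind of dominant mutation. It had 141 and 156 normalized counts with DPA, 341 and 326 with PA, 1866 and 1643 with ABA, and 138 and 206 in mock. The DPA values lay within the mock range, and PA lay above it. The authors' deposited tables gave 0.96 on the log2 scale with PA (adjusted p = 0.000335) and 3.35 with ABA (adjusted p = 1.56e-62).

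HAB1 (AT1G72770, chromosome 1, 27389948 to 27393327, plus strand), the phosphatase best known for inactivating the guard cell kinase SnRK2.6, had 685 and 705 normalized counts with DPA, 1141 and 1263 with PA, 4518 and 4158 with ABA, and 783 and 836 in mock. The 4 groups did not overlap, with DPA lowest. The authors' deposited tables called it higher with PA (log2 fold change 0.57, adjusted p = 0.0112) and with ABA (2.42, adjusted p = 1.25e-65).

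HAB2 (AT1G17550, chromosome 1, 6034270 to 6037398, plus strand), the HAB1 paralog, had the smallest fold change of the clade with ABA. It had 480.4 and 531 normalized counts with DPA, 769 and 774 with PA, 1707 and 1624 with ABA, and 567 and 599 in mock. The groups did not overlap here either. In the authors' deposited tables the log2 fold change was 0.40 with PA, which did not pass (adjusted p = 0.389), and 1.51 with ABA, which did (adjusted p = 6.1e-23). Limma on the recovered libraries gave the same 0.40 with an adjusted p of 0.0346, and with it 8 of 9 members called higher with PA (1.84% of all genes). That HAB2 call was lost with the 2 groups alone (adjusted p = 0.124 in limma) and in 5 of the 8 fits without 1 library.

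PP2CA (AT3G11410, chromosome 3, 3583782 to 3585850, minus strand), also called AHG3, restrains ABA responses in germinating seeds and guard cells. It had 399.5 and 402 normalized counts with DPA, 932 and 823 with PA, 3901 and 3547 with ABA, and 481 and 633 in mock. The groups did not overlap, and DPA was lowest. The authors' deposited tables gave 0.65 on the log2 scale with PA (adjusted p = 0.0326) and 2.74 with ABA (adjusted p = 6.92e-79).

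AHG1 (AT5G51760, chromosome 5, 21026805 to 21029188, plus strand), a seed phosphatase that the receptors do not readily block, was read 1 and 5 times with DPA, 8 and 4 times with PA, 44 and 29 times with ABA, and 0 and 2 times in mock. The PA reads were few but above mock, and the ABA reads were well above all others. The ratio of ABA to mock was 35.2 (95% exact counting interval 9.40 to 296), and the authors' deposited table called it higher (adjusted p = 5.5e-07). The ratio of PA to mock was 5.62 (1.25 to 51.7), and the authors' deposited table did not call it (adjusted p = 1).

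With PA, both libraries lay above both mock libraries for 9 of 9 members, beside 19.7% of genes whose mean was 10 or more. The same order held with ABA for the 8 members other than AHG1, beside 32.6%. AHG1 had it too, but it reached that mean only through its ABA libraries, so its ABA order is a description. In limma refits that left out 1 PA library, ABI2, HAB2, PP2CA and HAI3 lost their PA call under either omission (for HAB2, adjusted p = 0.198 and 0.221), and HAB1 lost it without the one of lower size factor. HAB2 and PP2CA also lost it without either ABA library, and HAB2, PP2CA and HAI3 lost it when the mock library of higher size factor was omitted. Without the PA library of higher size factor 4 members were called, and without the other PA library 3 members were called.

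With DPA, 0 of 9 members were called by the authors' deposited table, and 1 of 9 had an unadjusted p under 0.05 there (PP2CA, log2 fold change -0.48), beside 0.918% of all genes. Limma also called 0 (0% of all genes were called lower), with 3 of 9 at an unadjusted p under 0.05, beside 5.51%. The DPA mean was below the mock mean for 7 of 9 members, beside 49.2% of genes. Both DPA libraries lay below both mock libraries for 4 of 9 (ABI1, HAB1, HAB2 and PP2CA), beside 17.1% of genes with a mean of at least 10. The limma difference of DPA from mock had a 95% interval of -0.74 to -0.18 for PP2CA, -0.39 to 0.0039 for ABI1, -1.02 to 0.51 for HAI1 and -0.76 to 0.47 for HAI2, so moderate changes in the HAI genes could not be detected. The mock libraries themselves differed: all 9 members were higher in the mock library of lower size factor, as were 51.5% of genes. The seed storage gene CRA1 differed between them in the same direction, with 623 and 1427 normalized counts, and SESA1 had 3.06 and 93.8, and their part in the result was not tested. When the mock library of higher size factor was left out, limma called 2 of 9 members lower with DPA, beside 0.235% of all genes: PP2CA (-0.66, adjusted p = 0.0334) and HAI1 (-0.95, adjusted p = 0.0202).

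The 3 compounds were given at the same dose and time and were compared directly in 3 pairs with limma on log2(normalized count + 1), adjusted over 19617 genes. PA gave lower transcript than ABA for 8 of 8 members other than AHG1, beside 12.6% of all genes called lower in that comparison. Over all genes 1440 were called higher and 2469 lower with PA than with ABA, and upper-quartile scaling turned that split to 2433 higher and 1933 lower while these 8 members stayed called lower. The difference was largest for HAI3 at -4.10 (95% interval -5.58 to -2.63, adjusted p = 0.00199 in limma) and smallest for HAB2 at -1.11 (-1.29 to -0.93, adjusted p = 2.15e-05 in limma). HAI1 differed by -3.39 and HAI2 by -3.45, while ABI1 differed by -1.88, ABI2 by -2.39, HAB1 by -1.85 and PP2CA by -2.09, all called. AHG1 entered this fit only through its ABA libraries, so its difference of -2.50 is a description. It was read 12 times with PA and 73 times with ABA, a ratio of 0.160 (95% exact counting interval 0.0789 to 0.296).

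DPA also gave lower transcript than ABA for 8 of 8 members other than AHG1, beside 18.6% of all genes (3045 higher and 3647 lower, or 4237 higher and 2964 lower under upper-quartile scaling, with these 8 called lower under both). The differences ran from -1.72 for HAB2 to -8.21 for HAI3. DPA gave lower transcript than PA for 8 of 9 members, beside 2.44% of all genes. Here HAI3 differed by -4.11, HAI1 by -3.51 and HAI2 by -2.61, ahead of ABI2 at -1.16, PP2CA at -1.13, ABI1 at -1.08, HAB1 at -0.79 and HAB2 at -0.61. With errors implied by the deposited p-values, ABI1, PP2CA and HAI1 stayed called (3 of 9, beside 0.257% of all genes), and HAI3 had no value because its deposited p with DPA was 1. Without either PA library the HAI3 and ABI2 calls between DPA and PA were lost (adjusted p of 0.0688 and 0.105 for HAI3 and 0.0687 and 0.0581 for ABI2 in limma), and the ABI2 call also without the DPA library of higher size factor (adjusted p = 0.0506 in limma). AHG1 was not called between DPA and PA: its difference was -0.93 with an interval of -2.64 to 0.79 (adjusted p = 0.569 in limma). As a description that includes AHG1, the median difference over the members was -2.39 for PA against ABA, -3.43 for DPA against ABA and -1.13 for DPA against PA, beside -0.0086, -0.0045 and -0.0045 over all genes.

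**Figure D2:**
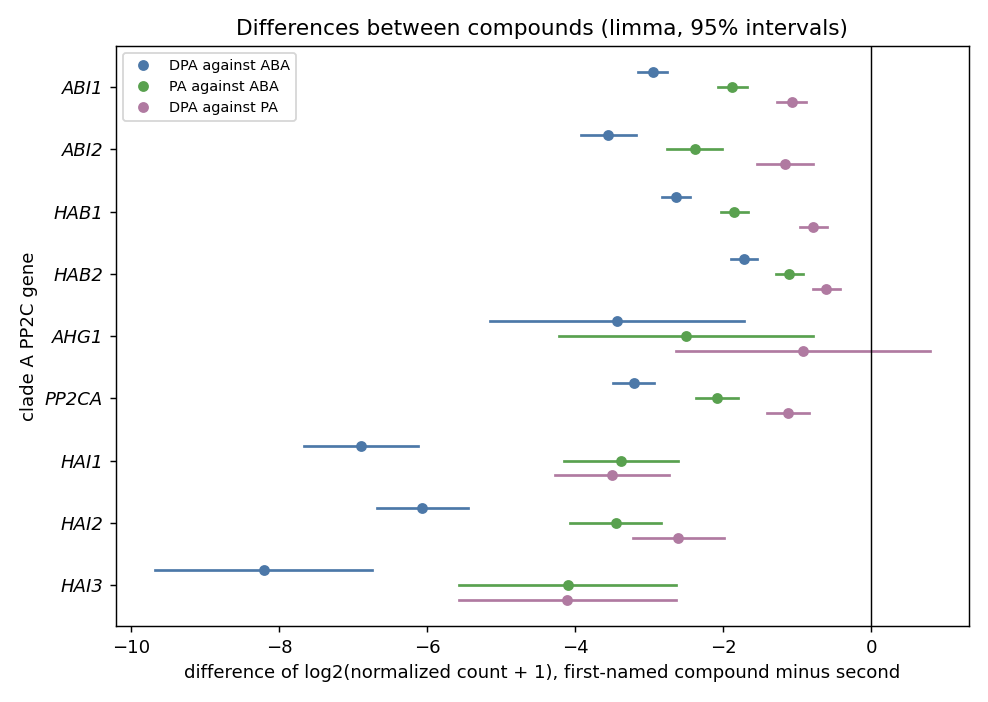
Difference between compounds for each clade A PP2C gene on the log2(normalized count + 1) scale, as the first-named compound minus the second, with 95% limma intervals over 2 libraries per group. For the 8 genes other than AHG1, all intervals lie below 0. AHG1 entered the fit only through its ABA libraries, so its differences from ABA are a description. Its interval for DPA against PA runs from -2.64 to 0.79.

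Levels of different genes were set side by side per kilobase of exon, over all annotated exon bases merged across transcripts. HAB1 has 5 annotated transcripts and HAI2 has 1, so comparisons between genes on this scale are approximate. The clade as a whole summed to 991 and 1047 normalized counts per kilobase with DPA and 2193 and 2163 with PA. The sum was 10500 and 9753 with ABA, and 1126 and 1332 in mock. The makeup shifted along with the sum. The 3 HAI genes made 2.59% and 3.26% of it with DPA, 11.5% and 13.4% with PA, 29.5% and 31.1% with ABA, and 1.99% and 3.76% in mock. DPA overlapped mock, while PA lay above both and ABA above PA. The 4 ABI and HAB genes made 74.95% and 75.1% with DPA, 64.7% and 65.4% with PA, 49.6% and 48.5% with ABA, and 74.3% and 69.7% in mock. HAB2 alone was 18.4% and 19.2% with DPA, 13.3% and 13.5% with PA, 6.15% and 6.30% with ABA, and 19.1% and 17.0% in mock. An exact permutation test of 2 libraries against 2 cannot give a p below 0.333, and these shares are given as a description.

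The order of levels per kilobase differed between groups. With DPA it ran ABI1, HAB1, PP2CA, HAB2, ABI2, HAI2, HAI1, AHG1 and HAI3, and the last pair overlapped. With PA it ran ABI1, PP2CA, HAB1, HAB2, ABI2, HAI1, HAI2, HAI3 and AHG1, with ABI2 (146 normalized counts per kilobase) and HAI1 (143) overlapping. With ABA it ran PP2CA, ABI1, HAB1, HAI1, HAI2, ABI2, HAB2, HAI3 and AHG1, where PP2CA (2069) overlapped ABI1 (2019) and HAB1 (1553) overlapped HAI1 (1503). In mock PP2CA (309.6), ABI1 (297) and HAB1 (289.7) overlapped at the top, followed by HAB2 (221), ABI2 (75.4), HAI2 (18.7), HAI1 (16.4), HAI3 (1.07) and AHG1 (0.688). HAI2 and HAI1 overlapped in mock, as did HAI3 and AHG1.

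**Figure D3:**
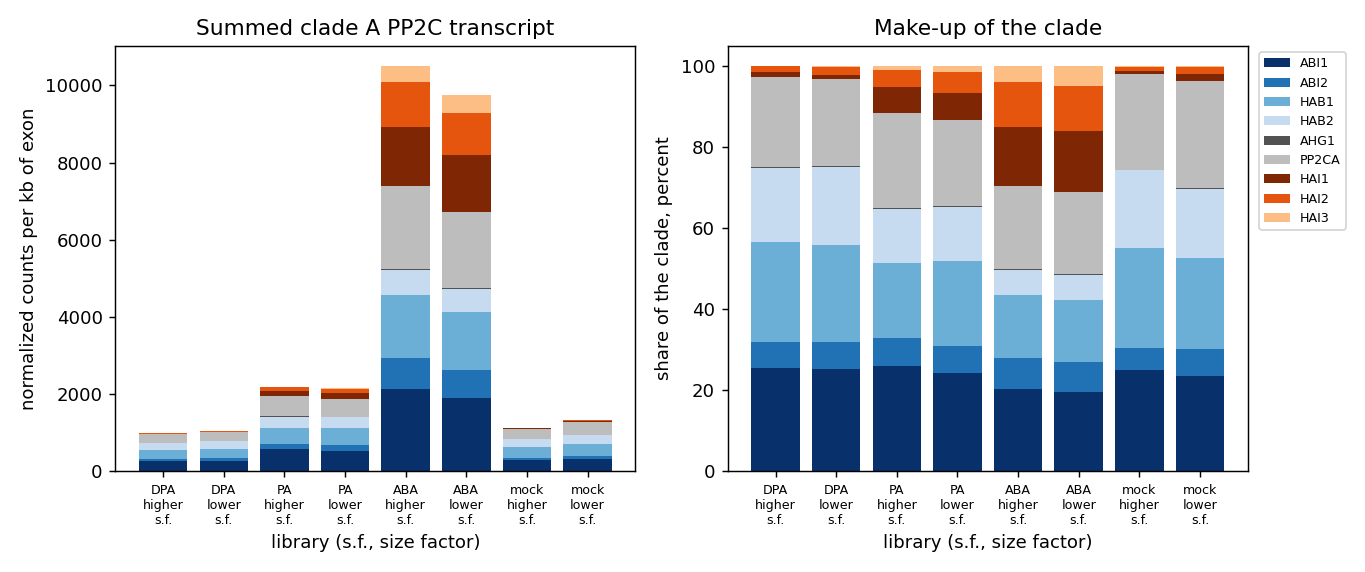
Left, summed clade A PP2C level in each library in normalized counts per kilobase of exon; right, the share of each gene in that sum, in percent. Bars are single libraries ordered DPA, PA, ABA and mock. The HAI genes (brown and orange) make 29.5% and 31.1% of the sum with ABA and 1.99% and 3.76% in mock.

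The promoters of the clade differ in how many ABRE cores they hold, and 5 are shown because their genes span the range of responses. They are the 300 bases before the annotated gene start in the RefSeq TAIR10.1 assembly, read 5′ to 3′ on the strand of the gene: HAI2 at chr1:2282829-2283128 (minus strand), PP2CA at chr3:3585851-3586150 (minus strand), HAI3 at chr2:12608375-12608674 (plus strand), HAB2 at chr1:6033970-6034269 (plus strand) and HAI1 at chr5:23896940-23897239 (minus strand). Capitals mark ACGTG on either strand (CACGT is the same motif on the other strand), with overlapping matches merged.
HAI2: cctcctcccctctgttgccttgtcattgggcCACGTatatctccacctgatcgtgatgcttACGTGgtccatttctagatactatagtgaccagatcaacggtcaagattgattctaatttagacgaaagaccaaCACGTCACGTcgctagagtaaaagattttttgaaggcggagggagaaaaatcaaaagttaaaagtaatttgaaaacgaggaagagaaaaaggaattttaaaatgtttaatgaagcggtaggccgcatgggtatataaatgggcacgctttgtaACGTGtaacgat
PP2CA: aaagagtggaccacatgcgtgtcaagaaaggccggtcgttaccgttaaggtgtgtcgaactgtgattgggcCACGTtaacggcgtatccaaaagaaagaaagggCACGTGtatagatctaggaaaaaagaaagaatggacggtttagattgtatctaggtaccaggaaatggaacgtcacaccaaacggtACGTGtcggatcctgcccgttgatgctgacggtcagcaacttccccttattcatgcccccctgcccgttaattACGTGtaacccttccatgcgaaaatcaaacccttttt
HAI3: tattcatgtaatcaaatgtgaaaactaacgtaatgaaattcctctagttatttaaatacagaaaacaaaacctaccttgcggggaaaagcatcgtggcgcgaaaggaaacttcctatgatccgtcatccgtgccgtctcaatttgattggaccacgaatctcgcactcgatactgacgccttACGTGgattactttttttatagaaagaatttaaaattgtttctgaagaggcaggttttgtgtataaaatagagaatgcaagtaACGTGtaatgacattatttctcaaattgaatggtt
HAB2: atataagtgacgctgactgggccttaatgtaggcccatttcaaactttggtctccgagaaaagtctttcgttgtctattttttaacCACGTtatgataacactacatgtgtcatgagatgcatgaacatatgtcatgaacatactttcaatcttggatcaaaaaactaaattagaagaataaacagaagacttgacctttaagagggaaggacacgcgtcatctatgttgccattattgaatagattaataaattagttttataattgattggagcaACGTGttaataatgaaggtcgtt
HAI1: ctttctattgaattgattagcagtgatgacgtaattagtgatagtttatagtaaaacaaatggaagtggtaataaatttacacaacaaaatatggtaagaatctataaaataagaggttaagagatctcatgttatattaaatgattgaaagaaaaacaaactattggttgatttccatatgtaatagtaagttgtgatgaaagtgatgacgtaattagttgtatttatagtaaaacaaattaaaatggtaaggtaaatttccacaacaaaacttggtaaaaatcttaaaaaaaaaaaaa

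ACGTG was found in 7 of the 9 promoters at 16 places, beside 25.6% of 27443 promoters of the same length. HAI2 held 5, PP2CA held 4, HAB2 and HAI3 held 2 each, and ABI1, HAB1 and AHG1 held 1 each. More than 1 core was present in 4 of 9 members, beside 5.86% of all promoters. The longer form ACGTGNC was in 4 of 9 members and 9.46% of promoters, TACGTG in 4 of 9 and 7.77%, and the palindrome CACGTG in 2 of 9 and 7.09%, each searched on both strands and each counted again within ACGTG. HAB2, with 2 cores, had the smallest ABA fold change of the clade. HAI1, with the second-largest, had none in this window, and neither had ABI2. No match says only that the letters are not in these 300 bases. In windows chosen after seeing the data, 8 of 9 members held ACGTG in 1000 bases before the gene start (54.4% of genes), with HAI1 again at 0, and 5 of 9 in the 500 bases before the start codon (34.9%), where HAI1 held 2.

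**Figure D4:**
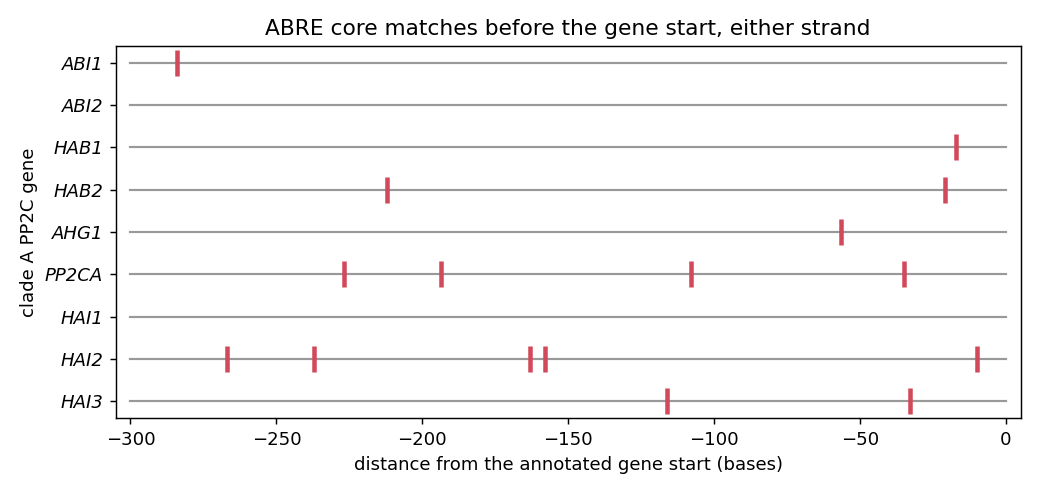
Places of ACGTG on either strand (red marks) in the 300 bases before the annotated start of each clade A PP2C gene, in bases from that start. HAI2 holds 5 and PP2CA 4, while ABI2 and HAI1 hold 0.

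The rest of the pathway was counted from lists of its known members, in the authors' deposited tables. Of the 14 receptors, which block the phosphatases, 0 were called higher and 7 lower with ABA among 13 tested (5.12% of all genes were called lower), with a median log2 fold change of -1.27. The largest falls were PYL6 at -3.58 (adjusted p = 0.0133), PYL4 at -3.37 (adjusted p = 7.44e-90) and PYL5 at -2.87 (adjusted p = 2.04e-13) in the authors' deposited table. PYL6 averaged only 1.48 normalized counts with ABA and 17.7 in mock. With PA, 2 of 12 were called lower, PYL5 at -1.17 and PYL4 at -0.90 (0.146% of all genes), and with DPA 0 of 12 passed. PYL4 averaged 2934 normalized counts with DPA, 1069 with PA, 193 with ABA and 1990.4 in mock. It was lowest with ABA, where each of the 9 phosphatase genes was highest.

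Of the 10 SnRK2 kinases, 4 were called higher with ABA in the authors' deposited table, 0 with PA and 0 with DPA. The shares of all genes were the 10.3%, 1.18% and 0.0125% above. The largest called rises with ABA were SnRK2.7 at 3.31 (adjusted p = 6.36e-10), SnRK2.6 at 1.61 (adjusted p = 1.56e-20) and SnRK2.1 at 0.54 (adjusted p = 0.00148). Among 8 transcription factors known to bind or regulate clade A promoters, 7 were called higher with ABA (10.3% of all genes), 4 with PA (1.18%) and 0 with DPA. HB7, a homeodomain factor, had log2 fold changes of 1.74 with PA and 4.02 with ABA in the authors' deposited tables, its relative HB12 had 1.64 and 3.75, and the bZIP factor ABF3 had 1.18 and 2.92. ABI5, the bZIP factor best known from germinating seeds, had 3.22 with ABA (adjusted p = 1.7e-21), and its PA value of 0.82 did not pass. Of 6 proteins known to act on the phosphatases, among them ubiquitin ligases that mark them for breakdown, 1 was called with ABA (the ligase RGLG1, 0.60, adjusted p = 0.00408), 0 with PA and 0 with DPA, beside 10.3% of all genes with ABA.

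The other 60 PP2C genes are those outside the clade whose product name holds the words protein phosphatase 2C. Of 55 tested in the authors' deposited table, 12 were called higher and 1 lower with ABA, beside the 10.3% of all genes called higher. There 0 of 55 were called with PA, and 0 of 54 with DPA. Their median log2 fold change was -0.01 with DPA, 0.03 with PA and 0.07 with ABA. The largest rise with ABA was that of AT3G05640 at 2.94 (adjusted p = 5.76e-44), followed by AT4G31860 at 1.74 (adjusted p = 7.79e-30) and AT3G62260 at 1.38 (adjusted p = 6.25e-06), and AT5G02760 was lower at -0.49 (adjusted p = 0.0126). AT3G05640 averaged 94.7 normalized counts with DPA, 159 with PA, 681 with ABA and 88.5 in mock, a log2 fold change of 0.85 with PA that did not pass (adjusted p = 0.0701).

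**Figure D5:**
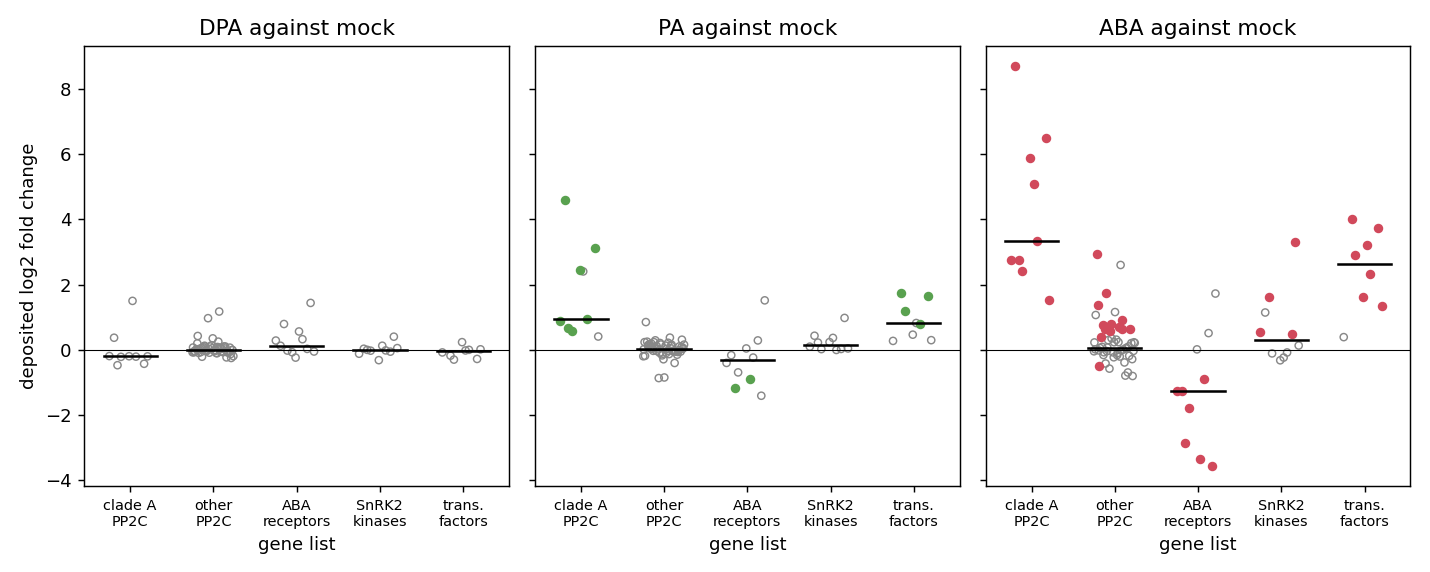
Log2 fold change against mock in the authors' deposited tables for clade A PP2C, other PP2C, ABA receptors, SnRK2 kinases and transcription factors, in panels for DPA, PA and ABA. Filled points passed an adjusted p of 0.05, open points did not, and the line is the median. The clade A medians are -0.21 with DPA, 0.96 with PA and 3.35 with ABA, while those of the other PP2C are -0.01, 0.03 and 0.07.

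The submitters also deposited a list of 333 loci shared between ABA and PA. It held 6 of the 9 members (ABI1, ABI2, HAB1, HAI1, HAI2 and HAI3) and not HAB2, AHG1 or PP2CA. Of these 3, PP2CA was called with both compounds at an adjusted p under 0.05 in the authors' deposited tables. With PA, 283 genes were called higher and 35 lower at that cut, so the 333 loci were not picked by it.

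The 5 genes outside the clade whose profile over the 8 libraries was most like the members' mean profile, among 16418 genes with a mean of at least 50, were TSPO (r = 0.999), RAP2.10 (r = 0.998), EXPA16 (r = 0.998), GolS2 (r = 0.998) and AT3G47510 (r = 0.998). These are Pearson correlations given as a description. The 8 libraries form 4 groups and are not 8 independent conditions. TSPO, annotated as an outer membrane tryptophan-rich sensory protein-like protein, averaged 18.4 normalized counts with DPA, 127 with PA, 2626 with ABA and 20.9 in mock. GolS2, a galactinol synthase, averaged 249 with DPA, 817 with PA, 3579.6 with ABA and 274 in mock. Of the members themselves, HAI2 lay closest to that profile (r = 0.999) and HAB1 farthest (r = 0.983) among the 8 with a mean of at least 50. Each member is part of that profile, in which members with large changes weigh most, so high values are partly built in.

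No 50-base window within any exon of a member had an exact match elsewhere in the genome. Near matches and reads that cross exon junctions were not searched. ABI1 overlaps the neighbouring gene AT4G26070 on the other strand by 22 exon bases, and the protocol does not name a strand-marking kit, so reads there cannot be told apart.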

How the data were processed

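Polyadenylated RNA of 8 libraries in 4 groups (DPA, PA, ABA, mock; 2 biological replicates each) was sequenced as 50-base single reads, per the labels' protocols. TopHat 1.4.1, HTSeq, DESeq 1.8.3 and the TAIR10 build are named in the submitters' processing notes, with no roles given. The authors deposited 1 table per compound against mock. Its group means are a signal (normalized counts) that the authors averaged over the 2 libraries, per the file headers. Its fold changes are ratios of these means, as deposited, and log2 values were computed from them here. Its p-values and adjusted p-values are the authors' deposited ones. Of 32683 rows, 5 name no gene (unassigned reads) and stayed out; 0 columns of other samples were left out. Reads with no feature came to 48.2% to 48.5% of each group's normalized sum, and ambiguous ones to 0.278% to 0.315%.

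Within a group mean, 1 read of a library always adds the same amount, which differs between libraries; from these amounts whole reads were recovered for 100% of values above 0. Replicate numbers are not recoverable. Compounds were compared with limma 3.58.1 (R 4.3.3, trend, Benjamini-Hochberg) on log2(normalized count + 1) at a mean of at least 10, all 4 groups in 1 fit; this scale understates changes of low genes. In data simulated for 19607 to 19625 genes, limma found 68% (DPA), 68% (PA) and 78% (ABA) of 2-fold changes against mock. It also called 3 (DPA), 12 (PA) and 6 (ABA) genes that had not been changed. The simulation gave every gene the same fixed spread beyond counting error, which was not estimated from these data. These shares therefore may not hold for members that varied more, such as HAI1 in mock. Counting intervals are exact 95% intervals and cover counting error only. Promoters, positions and product names come from RefSeq TAIR10.1; the tables hold locus names without coordinates.

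All members were named, with up to 3 called genes per list and direction and the 5 most similar genes. Members and lists were chosen with earlier results of these data known. RGLG5 and EAR1 were left out of their list because the annotation does not pair the chosen loci with those names. Alternatives were other pseudocounts, filters, scalings, groups and left-out libraries.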

Additional observations from a re-analysis of the deposited data

How the results depend on the processing

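No paired analysis was possible because the deposited columns are group means and carry no replicate numbers. With 2 libraries per group, calls rest on a shared estimate of spread, and a lone library left by an omission is assumed to vary like the other groups. AHG1 and HAI3 had at most 5 reads in any DPA or mock library. The cause of each change below was not tested.

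For ABA against mock, PA against ABA and DPA against ABA, the 8 members other than AHG1 kept their direction when 1 library was left out. AHG1 fell under the minimum mean without an ABA library, so its differences from ABA are a description. Its PA difference from ABA was -2.74 without the PA library of higher size factor and -2.27 without the other. With errors implied by the deposited p-values, the 8 members other than AHG1 stayed called for PA against ABA. For DPA against ABA, HAI3 had no value, and the 7 members other than HAI3 and AHG1 stayed called. For PA against mock, 3 members also passed a fold change of at least 2-fold, limma on the 2 groups alone called 5, and leaving out 1 library gave 3 to 8 calls. For DPA against PA, 3 members were called with errors implied by the deposited p-values, and leaving out 1 library gave 6 to 8. For DPA against mock, leaving out 1 library gave 0 to 2 calls.

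Some uncalled DPA differences from mock changed sign. HAI3, at 0.37 in the authors' deposited table, was -0.16 in limma with no filter, a mean of at least 50 or upper-quartile scaling, and -0.41 with a pseudocount of 0.5, and ranged from -1.34 to 1.02 without 1 library. Without 1 library, ABI2 ranged from -0.47 to 0.10, HAI1 from -0.95 to 0.44 and HAI2 from -0.60 to 0.31. The PA difference from ABA for AHG1, given as a description, was -2.60 with a pseudocount of 0.5 (adjusted p = 0.0879 in limma). Upper-quartile scaling shifted all log2 fold changes of ABA by a median of -0.09, and limma then called 2974 higher and 3943 lower, against 3539 higher and 2796 lower.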
